A study of Mus musculus with 3 samples.

Results

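The circRNAs described here came from 4 host genes that act in growth factor and receptor signaling: Pdgfd, Tgfbr2, Sulf1 and Erbb2ip. All rows of the deposited table assigned to these hosts were taken, which gave 7 circRNAs of 563, from 4 of 459 host genes. Plasma exosomes of wild type male C57BL/6 mice were sequenced in 3 libraries, 1 for each group, and named A1, B1 and C1 in the table. The groups were normal mice on basic feed, model mice made diabetic by a high-fat diet and then streptozotocin, which is toxic to the β cells of the islets, and model mice that also received electroacupuncture (EA) at the Zusanli and Pishu points over several weeks. Neither the age of the mice nor the number of mice whose plasma went into a library is given in the sources used here.

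The sources assign the libraries to different groups. By GEO's sample titles, A1 is the normal, B1 the model and C1 the model + EA library, and the groups here follow the titles. By the headings of the authors' comparison sheets, A1 is the model, B1 the model + EA and C1 the normal library. In the study's printed tables, Pdgfd, Tgfbr2 and Sulf1 stand among the upregulated hosts, which is the direction of B1 against A1 and so of the sheets. The fold printed for the downregulated circErbb2ip-13786 is instead that of C1 against A1, so the printed tables do not all use 1 contrast. A direction for EA against model that follows the titles here is therefore not the one published for the hosts printed as upregulated. EA against model is C1 against B1 by the titles and B1 against A1 by the sheets. Circles that were low in C1 and high in B1 thus turn from lower to higher with EA. Reads are therefore given by library, and every direction between groups holds only for the assignment it is given with. Each group rests on 1 library, so the spread between mice is unknown, differences could not be checked in replicates and p-values were not computed. All intervals are exact 95% intervals for counting error alone.

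Growth factors are secreted proteins that bind receptors on the cell surface, and the receptor then passes the signal on by phosphorylation. PDGF-D, the product of Pdgfd, is a ligand of the PDGF receptor β and is secreted with a CUB domain that must be cut off before it can bind. Tgfbr2 is the type II receptor of TGF-β, a serine/threonine kinase that phosphorylates the type I receptor. Sulf1 removes sulfate groups from heparan sulfate outside the cell and so alters how growth factors are held and presented. Erbb2ip (also named Erbin, the symbol in GENCODE) is a scaffold protein inside the cell with leucine-rich repeats and a PDZ domain, which binds the receptor ErbB2. A circRNA forms when the splicing machinery joins the 3′ end of an exon to the 5′ end of that exon or of one upstream, and a read across this back-splice junction counts the circle and not the linear transcript. The linear transcripts of the hosts were not analysed here. In plasma, fewer vesicles that carry a circle and fewer copies in each vesicle cannot be told apart.

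The back-splice junctions identify the circles, so the 5 whose ends both lie at annotated exon edges are shown by sequence. Each circle is named by its host and by the length in nt that the authors predicted. Each line runs 5′ to 3′ on the host's strand and gives the last 15 bases of the circle's last exon in lower case, then the first 15 bases of its first exon in capitals, read from GENCODE M21 transcripts (build GRCm38, the same assembly as mm10).
circPdgfd-648: atcggaagtccaaagAGAGCAATCACCTCA
circTgfbr2-360: tcatcttttcggaagTTAACAGTGATGTCA
circSulf1-866: tgcctcccaacacatGACTCCATCTGCAGA
circErbb2ip-364: atgtcagcaaaaatgAATGTTGGCTCAATT
circErbb2ip-590: gaaaatgttgcctaaAATGTTGGCTCAATT
Both circles of Erbb2ip enter at the same exon, so their capitals are identical, and they differ in the exon that is spliced back to it.

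Most of these circles were read in library B1. Of the 7, 6 had reads in B1, 2 in A1 and 2 in C1, while of all 563 circRNAs 24.9% had reads in B1, 27.9% in A1 and 56.8% in C1. Read in B1 alone were 4 of the 7, against 105 of 563 (18.7%), and 1 was read in A1 alone, against 135 of 563 (24.0%). None was read in C1 alone, the library that held 280 circRNAs (49.7%) of its own. The members were proposed with results of these data known, so these counts are a description. Together the 7 circles took 109 of 4125 junction reads in A1 (2.64%, exact interval 2.17% to 3.18%). They took 138 of 4372 in B1 (3.16%, 2.66% to 3.72%) and 25 of 2913 in C1 (0.858%, 0.556% to 1.26%). The reads of A1 came from Erbb2ip only, and those of B1 from all 4 hosts.

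**Figure D1:**
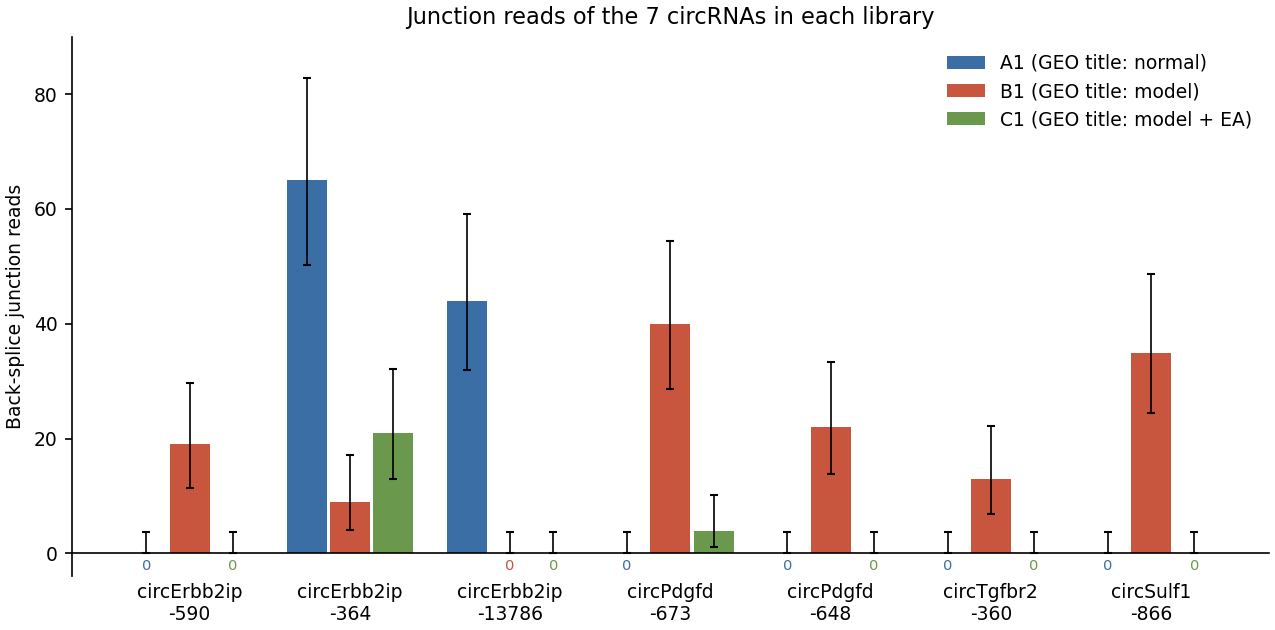
Back-splice junction reads (y axis) of the 7 circRNAs (x axis) in the 3 libraries, with bars for the counts as deposited and lines for exact 95% Poisson intervals of 1 library each. The circles of Pdgfd, Tgfbr2 and Sulf1 and circErbb2ip-590 stood highest in B1, with 13 to 40 reads, while circErbb2ip-364 and circErbb2ip-13786 stood highest in A1, with 65 and 44 reads.

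The floor of each library sets what a count of 0 means. A count of 0 allows up to about 3 reads, which is 0.0727% of the junction reads of A1, 0.0686% of B1 and 0.103% of C1. Per detected circRNA, the median was 25 reads in A1, 33.5 in B1 and 7 in C1, so C1 spread its reads over more circRNAs with fewer reads each. Markers of other sources were looked for among the hosts. Marker lists for hepatocytes, islets, endothelium, fibroblasts, platelets and B, T, NK and myeloid cells gave 0 circRNAs, and so did Cd9, Cd63, Tsg101 and Canx, the proteins the study blotted to characterise the exosomes. An erythroid list of 11 genes gave 4 circRNAs, of which Ank1, a red cell membrane anchor, had reads in C1 alone (3 reads). The list added up to 6 reads in A1, 50 in B1 and 7 in C1, and 43 of those in B1 came from the Hbb-bs junction of the β-globin locus. The other globin junctions had few reads in each library. In A1, B1 and C1, Hbb-bt had 4, 5 and 3 reads and Hba-a1 had 2, 2 and 1. Of the globin junctions, only Hbb-bs was thus read in B1 alone, as were 105 of all 563 circRNAs. Its part in the levels of the circles read in B1 was not tested.

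Ratios between libraries were taken after the counts were multiplied by the authors' factor for each library, 1.28 for A1, 1.03 for B1 and 1.00 for C1. Calls followed the 2-fold rule: a ratio of 2 or more counted as higher and of 0.5 or less as lower, and 0.1 reads stood in for 0. Where one library had 0 reads, the fold is a rough lower bound that sets 3 reads in its place and takes the other count without error. The exact lower limit, which allows for that error, lies below this bound. For circTgfbr2-360 in B1 against A1 it is 2.47, where the bound is 3.52. A stricter call asked that the whole exact interval of the ratio lie beyond 2-fold.

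The first comparison sets B1 against A1, which is model against normal by the titles and model + EA against model by the comparison sheets. Of the 7 circles, 5 were higher and 2 lower in B1. Over all 563 circRNAs, 22.6% were higher and 25.9% lower in B1 by the same rule. A circRNA read only in C1 cannot be called here, and among the 283 with reads in A1 or B1, which include all 7 circles, 44.9% were higher and 51.6% lower. By the stricter call it was again 5 and 2 of the 7, beside 20.4% and 22.6% of all circRNAs. The median log2 ratio of the 7 was 7.27, a size set by the 0.1 reads that stand for 0. Over all circRNAs the median was -0.30, which is the ratio of the factors alone, since many had 0 reads in both libraries. Among the 283 with reads in A1 or B1 it was -4.62. The higher ones were both circles of Pdgfd and those of Tgfbr2 and Sulf1, together with circErbb2ip-590, and the lower ones were the remaining circles of Erbb2ip.

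The second comparison sets C1 against B1, which is model + EA against model by the titles and normal against model + EA by the sheets. Here 5 of the 7 were lower and 1 (circErbb2ip-364) higher in C1, while over all circRNAs 23.1% were lower and 51.7% higher. Among the 428 with reads in B1 or C1, which include 6 of the circles, 30.4% were lower and 68.0% higher. By the stricter call 5 of the 7 were lower and 0 higher, beside 20.1% and 17.9% of all circRNAs. The median log2 ratio was -7.07 for the 7 circles and 4.27 for all 563. Among the 428 with reads in B1 or C1 it was 5.27, and for the 6 circles included it was -7.35. The third comparison sets C1 against A1, which is model + EA against normal by the titles and normal against model by the sheets. In C1, 2 of the 7 were lower and 1 higher, where 27.0% of all circRNAs were lower and 53.6% higher. Among the 458 with reads in A1 or C1, which include 3 of the circles, 33.2% were lower and 65.9% higher. The median log2 ratio was -0.35 for the 7 circles, which is the ratio of the factors alone, and 3.97 for all circRNAs. Among the 458 with reads in A1 or C1 it was 4.97, and for the 3 circles included it was -1.98. By the stricter call 2 were lower and 0 higher, beside 23.1% and 13.0% of all circRNAs. The remaining 4 circles had 0 reads in both A1 and C1, so that their ratio is the ratio of the factors alone. The comparisons share libraries pairwise and are not independent of each other.

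**Figure D2:**
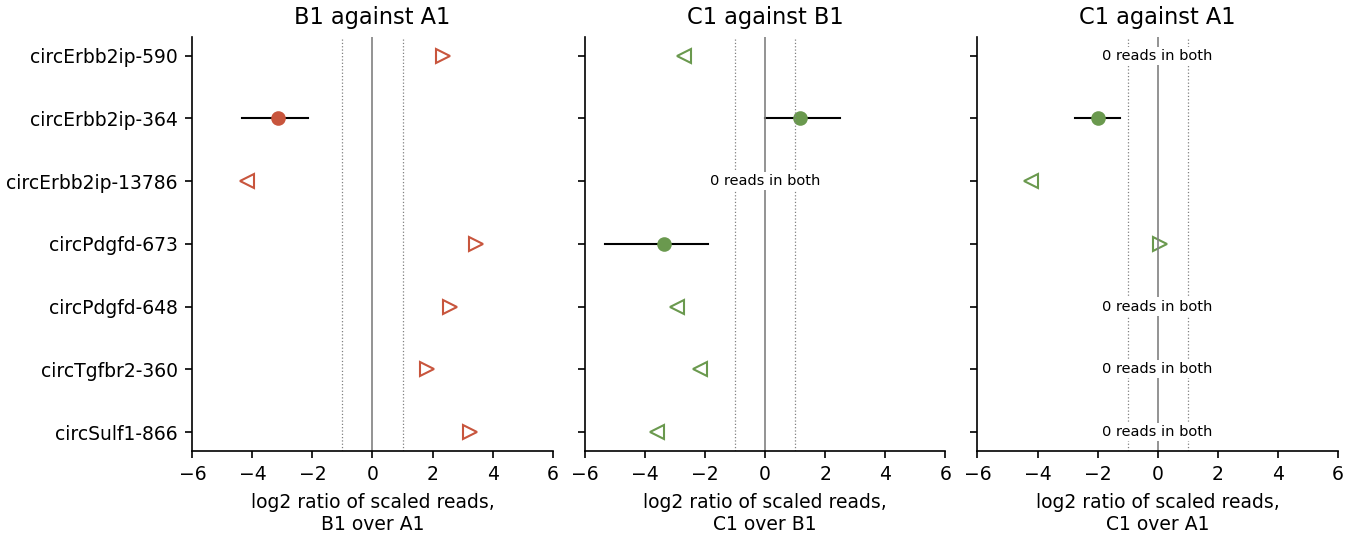
Log2 ratio of scaled reads (x axis) of each circRNA (y axis) for B1 against A1, C1 against B1 and C1 against A1, with filled points and lines for ratios with their exact 95% intervals and open triangles for bounds computed against 3 reads where 1 library had 0. Dotted lines mark 2-fold. The 5 circles higher in B1 than in A1 were also those lower in C1 than in B1, and both contrasts use the same B1 library.

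Pdgfd, the ligand, gave 2 circles, and both were read mainly in B1. The circle circPdgfd-673 had 0 reads in A1, 40 in B1 and 4 in C1. It was at least 10.8-fold higher in B1 than in A1 and 10.3-fold lower in C1 than in B1 (exact interval 3.74 to 39.8). Between C1 and A1 it was called higher on 4 reads against 0, a bound of only 1.05-fold, and with 3 reads in place of 0 the call was lost. The authors class it as intronic, and it lies on chromosome 9 from 6228057 to 6228729 on the plus strand. Against GENCODE M21, it lay inside intron 1 of Pdgfd, which measures 119571 nt in the transcript used for this circle, at 59138 nt from exon 1 and 59760 nt from exon 2. Neither of its ends was an annotated exon edge and it carried no identifier from an earlier database. Intronic circRNAs made up 32 of the 563 (5.68%). Because it holds no part of an annotated exon, it is assigned to Pdgfd by position only.

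The second circle of this host, circPdgfd-648, had 0 reads in A1, 22 in B1 and 0 in C1. It was at least 5.95-fold higher in B1 than in A1 and at least 7.59-fold lower in C1 than in B1. It is built from exons 2 to 5 of 7, on chromosome 9 from 6288472 to 6337441, and its exon lengths add up to the predicted length. All of it is coding sequence, codons 42 to 258 of 370, which takes in the region of the CUB domain and ends before the growth factor domain. It was known from an earlier catalogue of mouse circRNAs. In B1, circPdgfd-673 took 64.5% of the 62 reads of the host (exact interval 51.3% to 76.3%) and circPdgfd-648 the remaining 35.5% (23.7% to 48.7%), so the intronic junction was read more often than the exonic one.

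Tgfbr2, the receptor, gave 1 circle with the fewest reads of those called higher in B1. The circle circTgfbr2-360 (mmu_circ_0001853 in circBase) had 0 reads in A1, 13 in B1 and 0 in C1. It was at least 3.52-fold higher in B1 than in A1 and at least 4.48-fold lower in C1 than in B1. It consists of exons 3 and 4 of 8, on chromosome 9 from 116129816 to 116131713 on the minus strand, and is wholly coding. Its codons 57 to 177 of 592 lie in the part of the receptor outside the cell, which binds the ligand, and none of the kinase domain is in the circle. In B1 it ranked at position 118 of 140 detected circRNAs, so it was among the less read circles of that library.

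Sulf1, the extracellular sulfatase, gave 1 circle that had no identifier from an earlier database. The circle circSulf1-866 had 0 reads in A1, 35 in B1 and 0 in C1, and its count in B1 lay close to the median of that library. It was at least 9.47-fold higher in B1 than in A1 and at least 12.1-fold lower in C1 than in B1. Exons 3 to 7 of 22 form it, on chromosome 1 from 12786079 to 12808023 on the plus strand. It holds the start codon: 132 nt lie before it in the 5′ UTR and 734 nt are coding, codons 1 to 245 of 870, which begin with the signal peptide and reach into the sulfatase domain. Of the 5 exonic circles it was the longest, and 89.8% of the exonic circRNAs of the table were as long or shorter.

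Erbb2ip, the scaffold of ErbB2, gave 3 circles, and each library read a different mixture of them. The circle circErbb2ip-364 (mmu_circ_0000495 in circBase) was 1 of 11 circRNAs found in all 3 libraries, with 65 reads in A1, 9 in B1 and 21 in C1. In A1 it ranked at position 4 of 157 detected circRNAs, in C1 at position 20 of 320 and in B1 at position 126 of 140. It was 8.90-fold lower in B1 than in A1 (exact interval 4.41 to 20.3) and 3.95-fold lower in C1 than in A1 (2.38 to 6.80). The ratio of C1 to B1 was 2.25 (0.990 to 5.59), an interval that reaches 1, so with the authors' factors this difference was not larger than counting error. That reading holds for these factors only. On the log2 scale this ratio was 1.17 with them, 1.81 with total junction reads and 2.26 with the TMM factors of edgeR. The difference between C1 and A1 depended on the scaling: on the log2 scale it was -1.98 with the authors' factors, -1.13 with total junction reads and -0.35 with the TMM factors of edgeR, with which it was no longer called.

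The circle circErbb2ip-590 had 0 reads in A1, 19 in B1 and 0 in C1. It was at least 5.14-fold higher in B1 than in A1 and at least 6.55-fold lower in C1 than in B1. Its first exon is that of circErbb2ip-364, exon 2 of 27, but it runs on to exon 7 where the shorter circle ends at exon 4. Both lie on chromosome 13 on the minus strand, circErbb2ip-590 from 103866649 to 103889285 and circErbb2ip-364 from 103884143 to 103889285. Both hold the start codon after 57 nt of 5′ UTR, with codons 1 to 178 in the longer and 1 to 103 in the shorter circle, at the start of the leucine-rich repeats. Unlike the shorter circle, circErbb2ip-590 carried no database identifier.

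The circle circErbb2ip-13786 had 44 reads in A1, 0 in B1 and 0 in C1. It was at least 18.1-fold lower in B1 than in A1 and at least 18.7-fold lower in C1 than in A1, and with 0 reads in both B1 and C1 it gave no fold between them. The authors class it as sense overlapping, and its length of 13786 nt is the genomic span from 103884143 to 103897928, not a spliced length. Its 3′ end is that of exon 4, the same as in circErbb2ip-364. Its 5′ end lay inside intron 1, 8643 nt before exon 2 and 22317 nt after exon 1, where GENCODE M21 has no exon edge. Of the 70 sense overlapping circRNAs, 44 (62.9%) likewise had exactly 1 end at an exon edge. The circle was known from an earlier catalogue of mouse circRNAs, and which parts of its span it holds cannot be read from the junction. The study prints it among its most downregulated circRNAs. The printed fold matches the log2 ratio of C1 against A1 (-9.13) and not that of B1 against A1 (-9.08). By the titles, C1 against A1 is model + EA against normal, where the circle was lower too. By the sheets, it is normal against model. Model + EA against model gave the circle no direction by the titles.

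Within Erbb2ip, the share of the host's reads that each circle took differed between the libraries. In A1, circErbb2ip-364 took 59.6% of 109 reads (exact interval 49.8% to 68.9%) and circErbb2ip-13786 took 40.4% (31.1% to 50.2%), and circErbb2ip-590 could have had up to 3.33%. In B1, circErbb2ip-590 took 67.9% of 28 reads (47.6% to 84.1%) and circErbb2ip-364 took 32.1% (15.9% to 52.4%), while circErbb2ip-13786 could have had up to 12.3%. In C1, all 21 reads were of circErbb2ip-364, which sets its share at 83.9% or more. The intervals of circErbb2ip-590 in A1 and B1 did not overlap, nor did those of circErbb2ip-13786. Both circles were read in 1 library alone, which was common: 24.0% of all 563 circRNAs were read in A1 alone, 18.7% in B1 alone and 49.7% in C1 alone. How often the circles of other hosts differ in this way was not counted. Summed over its circles, Erbb2ip was 4.80-fold lower in B1 than in A1 (3.14 to 7.55) and 6.62-fold lower in C1 than in A1 (4.12 to 11.1), and the ratio of C1 to B1 was 0.725 (0.391 to 1.32). These sums and intervals use the authors' factors. The TMM factors raise every log2 ratio by 1.63 for C1 against A1 and by 1.09 for C1 against B1. The latter exceeds the -0.46 of this sum, so its sign turns.

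**Figure D3:**
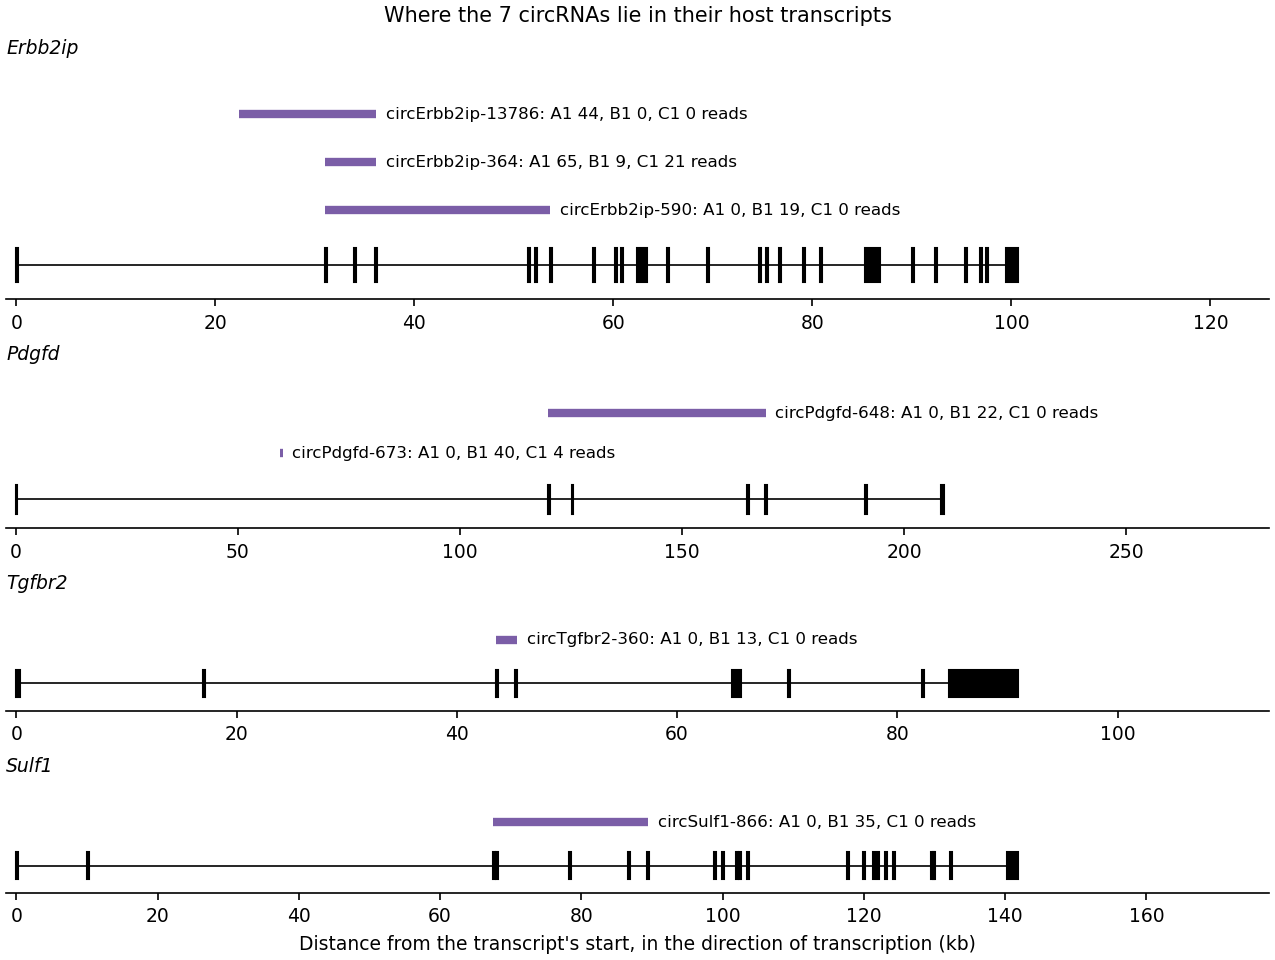
Host transcripts drawn to scale from their start in the direction of transcription (x axis, kb), with black boxes for exons (the narrowest drawn slightly wider to be visible) and purple bars for the span of each circRNA, introns included, beside its reads in A1, B1 and C1. The circles circErbb2ip-590 and circErbb2ip-364 start at the same exon, circErbb2ip-364 and circErbb2ip-13786 end at the same exon, and circPdgfd-673 lies far from any exon.

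The 5 exonic circles all began at the second or the third exon of the host and differed in size and base composition. They held 2 to 6 exons, against a median of 3 over the 459 exonic circRNAs with both ends at exon edges of 1 transcript, and 360 to 866 nt against a median of 376 nt. Exon 2 was the first exon of circPdgfd-648 and both exonic circles of Erbb2ip, and exon 3 that of circTgfbr2-360 and circSulf1-866. Over the 459, 176 (38.3%) began at exon 2, and the share that began at exon 3 was not counted. The start codon was held by 3 of the 5, against 95 of 459 (20.7%). These were circSulf1-866 and both exonic circles of Erbb2ip, which hold the same start codon and are not separate cases.

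The intron before each exonic circle was long. It measured 119553 nt for circPdgfd-648 (in another transcript than the one used for circPdgfd-673, hence the other length of the same intron), 57390 nt for circSulf1-866, 30960 nt for both circles of Erbb2ip and 26557 nt for circTgfbr2-360. Over the exonic circRNAs the median was 8964 nt with an upper quartile of 23369 nt, so each of these introns was longer than in 3 of 4 exonic circRNAs. The intron after the circle measured from 4305 nt for circErbb2ip-590 to 22261 nt for circPdgfd-648, against a median of 6049 nt. GC content ran from 36.3% in circErbb2ip-590 and 37.1% in circErbb2ip-364 to 52.2% in circTgfbr2-360, with a median of 45.6% over the exonic circRNAs. Since 2 of the circles share exons and an intron, these are 4 hosts and not 5 separate cases.

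Among the circRNAs of each library, the members stood at different places. In A1, circErbb2ip-13786 held position 13 of 157, so both A1 circles were among its most read. In B1, the 6 detected members ran from position 37 of 140 for circPdgfd-673, over 59 for circSulf1-866, 96 for circPdgfd-648 and 107 for circErbb2ip-590, to the positions given above for circTgfbr2-360 and circErbb2ip-364. The count of 35 for circSulf1-866 was shared with other circRNAs of B1, 7 in all. In C1, circPdgfd-673 held position 232 of 320, a position it shared with the other circRNAs of 4 reads.

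**Figure D4:**
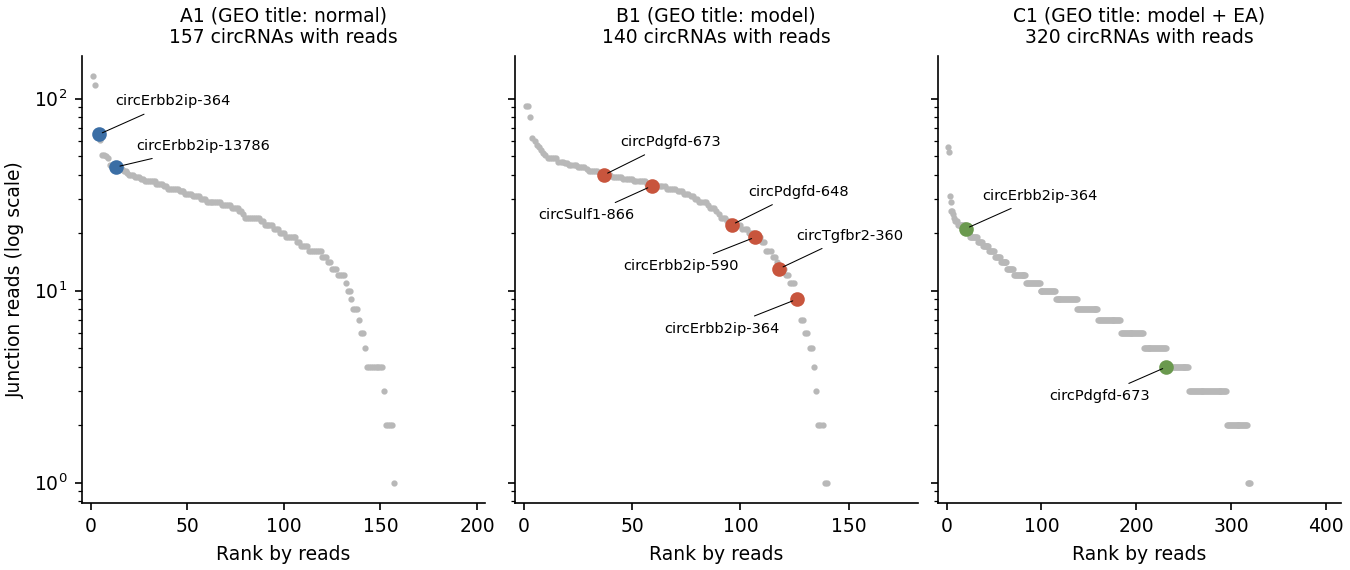
Junction reads (y axis, log scale) of every circRNA with reads in a library, ordered by reads (x axis), with grey points for all circRNAs and coloured points for the members. Both members of A1 lie at the left end of the curve, and the 6 members of B1 spread from its upper middle part to its lower end.

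Other genes of growth factor and receptor signaling were taken from a list of 179 symbols of ligands, receptors, adaptors, kinases and heparan sulfate enzymes. Few of them were hosts in the table, and besides the members 3 are described here, with 1 exonic circle each. The circle of Gab1, an adaptor of receptor tyrosine kinases, had 0 reads in A1, 34 in B1 and 0 in C1. That of Map3k7 (TAK1), a kinase activated by TGF-β, had 45, 0 and 0 reads. The circle of Plcg2, a phospholipase C activated by tyrosine kinases, had 16, 0 and 0 reads. In B1, the circle of Gab1 was thus at least 9.20-fold higher than in A1, while those of Map3k7 and Plcg2 were at least 18.5-fold and 6.57-fold lower. In C1, Gab1 was at least 11.7-fold lower than in B1, and Map3k7 and Plcg2 were at least 19.1-fold and 6.80-fold lower than in A1. All 3 had 0 reads in C1.

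The pattern of each host over the 3 libraries was compared with that of the other hosts, as the Euclidean distance between shares of scaled reads, over 210 other hosts with at least 20 reads in all. Closest to Erbb2ip were Chm, a Rab escort protein (26, 9 and 0 reads in A1, B1 and C1, distance 0.137), Ankib1 (98, 54 and 15 reads, 0.168) and Rps6kb1, the S6 kinase (49, 25 and 17 reads, 0.177). Next came Arid1a, a subunit of a chromatin remodeling complex (40, 7 and 0 reads), and Atp8a1, a lipid flippase (17, 0 and 5 reads). Closest to Pdgfd were Btbd7 (0, 32 and 2 reads, distance 0.00245), Dnajc1 (0, 38 and 2 reads, 0.0145) and the autophagy receptor Optn (0, 49 and 4 reads, 0.0204), followed by Map4k5 and Sox6. For Sulf1 and Tgfbr2 the pattern is that of every host read in B1 alone, of which there were 79 others. Nearest in reads were Atad2 and C1galt1 for Sulf1, with 35 reads each, and Cnot1 and Mllt3 for Tgfbr2, with 13 each.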

How the data were processed

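Stranded paired-end libraries were made from exosomal RNA after removal of rRNA. Adapters were trimmed by the authors with cutadapt 1.9.3, reads were aligned to mm10 with STAR 2.5.1b, and circRNAs came from DCC with circBase annotation. The deposited count columns hold whole junction reads per circRNA. The log2 columns deposited by the authors equal the log2 of these counts after multiplication by a factor for each library, where 0.1 stands for 0 reads. The derivation of the factors is not given in these sources. Positions, strands, hosts, classes and predicted lengths were used as deposited by the authors.

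Groups were taken from GEO's titles. All 563 circRNAs were scaled by the authors' factors and called at 2-fold, and a circRNA with 0 reads in both libraries was not called. Shares and ratios carry Clopper-Pearson 95% intervals (scipy 1.17.1), and 11 alternatives were run, one with the TMM factors of edgeR 4.0.16. Exons, coding parts and junction sequences came from GENCODE M21. The calling step was tested on simulated data. Members and gene lists were chosen with earlier results of these data known. Named were the members, hosts of the signaling list, and the hosts most alike by the distance rule. One item of the signaling list is not reported here. Flanking introns were not searched for inverted repeats, since no genome sequence was used here.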

Additional observations from a re-analysis of the deposited data

How the results depend on the processing

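Over the 11 alternatives, 45 counts of members stayed close to their value and 21 moved, and the log2 ratio of circErbb2ip-364 for C1 against A1 left its counting interval at -1.13 with total junction reads and -0.35 with TMM in place of -1.98. Where a library has 0 reads the interval is open on that side, so it says nothing of stability, and the ratio moves with the value put for 0: with 3 reads, circErbb2ip-590 for B1 against A1 went from 7.27 to 2.36 and circPdgfd-673 for C1 against A1 from 4.97 to 0.06, which ended its call. With B1 against A1 as model against normal, 5 circles were higher and 2 lower; at least 20 reads left 3 higher, and sums per host gave 3 hosts higher and 1 lower of 4. With C1 against B1 as model + EA against model, 1 was higher and 5 lower; 4-fold, the exact interval beyond 2-fold and sums per host each left 0 higher, while at least 20 reads left 3 lower and sums per host 3 hosts lower. With C1 against A1 as model + EA against normal, 1 was higher and 2 lower; 3 reads in place of 0, at least 10 reads, at least 20 reads and the exact interval each left 0 higher, while 4-fold, TMM factors and sums per host each left 1 lower. Sums per host count 4 hosts and not 7 circles, and a minimum of reads removes the circles under it by construction. With the groups of the comparison sheets, model against normal gave 2 higher and 1 lower, model + EA against model 5 higher and 2 lower, and model + EA against normal 5 higher and 1 lower. Relative to the authors' factors, TMM moved every log2 ratio by 0.54 for B1 against A1, 1.09 for C1 against B1 and 1.63 for C1 against A1, and total junction reads by 0.22, 0.64 and 0.85. The cause of the difference between the scalings was not tested. No paired analysis was possible because each group has 1 library. Depth limits every count of 0 to below about 3 reads.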

Other observations

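The reading frame of the host was followed around each exonic circle, since a circle that keeps the frame open has no stop codon of its own. In circErbb2ip-364, the frame from the host's start codon ran for 107 codons and met a stop after 5 codons past the junction. In circErbb2ip-590 it ran for 195 codons, 18 of them past the junction, and in circSulf1-866 for 259 codons, 15 of them past the junction. The frame of circPdgfd-648 and circTgfbr2-360 met no stop in the rounds read, as both are wholly coding and have a length divisible by 3. Of the 459 exonic circRNAs, 113 (24.6%) were wholly coding with such a length. Whether any of these circles is translated was not measured.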
